A study of Mus musculus with 24 samples.

Results

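The mRNAs of the Myc, Max and Mxd network were followed through 2 QuantSeq experiments on a mouse lymphoid progenitor line. The network comprised 9 genes taken by their symbols, *Myc*, *Mycn*, *Max*, *Mxd1*, *Mxd3*, *Mxd4*, *Mxi1*, *Mnt* and *Mga*, of 55487 genes listed in each experiment. All 9 were found in both, had reads in every library (7 to 1032 reads) and entered the tests. In QuantSeq, reverse transcription starts at the poly(A) tail, so that each mRNA yields 1 tag near its 3′ end.

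The cells were Cas9-LPs, a lymphoid progenitor line derived from fetal liver progenitors (the donor mice being Ebf1-deficient;Rosa26-Cas9 knock-in) and cultured with SCF, Flt3L and IL-7 on mitomycin C-treated OP9 stromal cells. Every group therefore lacked EBF1, a factor required for the B lineage, carried Cas9, and had been transduced with a retroviral sgRNA vector that encodes the surface marker hNGFR. Cells positive for hNGFR and CD45 were sorted 5 days after transduction. In experiment 1, cells with sgControl (which targets luciferase) or sgCbfb were either kept on OP9 (LPs) or moved to OP9-DLL4, which displays a Notch ligand (Phase 1 cells). The paper describes Phase 1 cells as having had 2 days of Notch stimulation. Experiment 2 held LPs on OP9 with sgControl, sgCbfb, sgCTCF or sgMed12. Each of the 8 groups had 3 libraries. *Cbfb* encodes the partner that all RUNX factors need to bind DNA, *Ctcf* a factor that organizes chromatin loops, and *Med12* a subunit of the Mediator kinase module. The guides were delivered to a bulk population, so a group can hold cells in which the target was not cut.

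MYC and its relative MYCN bind DNA only as partners of MAX, at E-boxes, and drive genes of ribosome production, metabolism and cell cycle entry. MXD1, MXD3, MXD4, MXI1 and MNT compete for MAX and recruit SIN3 corepressors to the same sites, and MGA joins MAX in a Polycomb complex. In early lymphocytes MYC and MYCN are both linked to growth and proliferation, and MYC is a well-known target of Notch in T-cell progenitors and leukemia.

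The windows 250 bases upstream of the RefSeq gene starts (GRCm38.p6) were read for the members. Those of *Max*, *Mxd1* and *Mxd4* are shown, a choice made after their values were seen. These mRNAs passed with Notch stimulation or a guide. So did *Mycn*, whose window is not shown, and *Myc*, which had no window. RefSeq windows matched 8 of the 9 members. Each window is shown 5′ to 3′ on the gene's strand, and capitals mark an E-box, CACGTG. The windows lie at chr12:76962249-76962498 for *Max*, chr6:86669160-86669409 for *Mxd1* and chr5:34187711-34187960 for *Mxd4*, all on the minus strand. They end at the gene start and hold at most 10 bases of annotated exon.
Max: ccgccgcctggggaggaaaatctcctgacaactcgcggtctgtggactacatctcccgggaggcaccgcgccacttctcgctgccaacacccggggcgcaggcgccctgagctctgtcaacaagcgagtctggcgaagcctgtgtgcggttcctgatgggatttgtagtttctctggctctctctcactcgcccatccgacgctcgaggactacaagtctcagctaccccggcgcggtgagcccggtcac
Mxd1: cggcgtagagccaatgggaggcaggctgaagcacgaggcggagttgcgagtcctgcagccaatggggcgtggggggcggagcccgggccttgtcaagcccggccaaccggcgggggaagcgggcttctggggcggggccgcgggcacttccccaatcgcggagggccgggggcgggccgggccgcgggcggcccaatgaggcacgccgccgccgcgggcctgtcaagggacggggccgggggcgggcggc
Mxd4: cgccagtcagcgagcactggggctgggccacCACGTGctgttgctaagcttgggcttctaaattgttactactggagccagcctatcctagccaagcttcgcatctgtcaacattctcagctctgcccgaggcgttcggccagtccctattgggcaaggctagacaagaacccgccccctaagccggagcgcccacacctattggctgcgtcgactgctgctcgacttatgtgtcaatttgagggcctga
The motifs searched on both strands were the E-box, a RUNX core TGTGGT, an RBPJ core TGGGAA and a core motif of CTCF. The E-box was found 219 bases before the *Mxd4* start and 123 bases before the *Mnt* start, against 6.02% of 32851 windows of the same length. An RBPJ core lay 92 bases before the *Mxd3* start and at 206 and 28 bases in 2 windows of *Mxi1*, against 21.6% of windows. The RUNX and CTCF cores, present in 14% and 2.07% of windows, were in none of the members' windows. A match is a description of the letters alone, and none of these motifs was found in the *Max*, *Mxd1*, *Mycn* or *Mga* windows.

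Libraries held 1363263 to 1743319 reads on genes in experiment 1 and 3354483 to 4326782 in experiment 2. Libraries of a group correlated with their partners at r = 0.944 or more in experiment 1, except Phase 1 sgControl replicate 3 (0.898), and at 0.984 or more in experiment 2, except sgMed12 replicates 1 and 2 (0.971 and 0.962). *Cbfb* mRNA was lower with sgCbfb in LPs (86.5 to 40.2 CPM in experiment 1 and 114.3 to 48.4 CPM in experiment 2). The Phase 1 means were 66.5 CPM (sgControl, 44.7 to 81.3) and 53.9 CPM (sgCbfb, 44.1 to 63.5). There the difference did not pass (limma, log2 difference -0.27, adjusted p = 0.591), so *Cbfb* mRNA does not check the Phase 1 sgCbfb label. *Ctcf* fell from 391 to 305.7 CPM with sgCTCF. *Med12*, at no more than 34 reads in any library of experiment 2, was 5.13 CPM with sgControl and 7.01 CPM with sgMed12, so its mRNA does not check that label. The paper checked the disruption of *Cbfb*, *Ctcf* and *Med12* at the protein level, by immunoblot of transduced LPs. Of 9 Notch-induced T-lineage genes 8 rose with Notch stimulation in sgControl cells, where 6.48% of all genes passed. Their summed level went from 44.96 to 60.8 CPM in LPs to 880 to 1076 CPM in Phase 1 cells. Of 5 B-cell genes *Cd79a* was at 0 in every library, and their sum was 0.628 to 13.6 CPM in experiment 1 and 0.754 to 27.0 CPM in experiment 2, where *Pax5* was 8.58 CPM with sgControl, lower with sgCbfb (0.932 CPM) and higher with sgCTCF (22.0 CPM, adjusted p = 0.0064). The 8 OP9 stromal markers summed to 0 to 7.78 CPM in experiment 1 and to 0.487 to 27.4 (sgControl), 2.27 to 17.9 (sgCbfb), 14.1 to 30.3 (sgCTCF) and 5.23 to 39.0 CPM (sgMed12) in experiment 2. *Dcn*, *Col3a1* and *Postn* were at 0 throughout, while *Sparc* was higher with sgCbfb in Phase 1 cells (listed at 0 and 5.26 CPM) and in LPs of experiment 2 (1.055 and 4.39 CPM). The part of these markers in the results was not tested.

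The 9 members were first set against all tested genes in each comparison. A gene passed at an adjusted p under 0.05 from limma on log2(CPM + 1), with all 4 groups of an experiment in one fit and Benjamini-Hochberg adjustment over all genes. All adjusted p-values in the text are from this test unless another is named. Notch stimulation lowered 2 of 9 members in sgControl cells (*Mxd4* and *Mycn*), where 6.48% of 13239 genes passed (3.23% lower), and the same 2 in sgCbfb cells, where 2.24% passed (0.959% lower; 4.31% passed without Phase 1 sgControl replicate 3). With sgCbfb, none of 9 passed in LPs of experiment 1, where 2.85% of all genes did (4.80% without Phase 1 sgControl replicate 3, where 1 of 9 did). There 2 of 9 had an unadjusted p under 0.05, and 1 of 9 passed with edgeR's quasi-likelihood test. In Phase 1 cells 1 of 9, *Mxd1*, was higher with sgCbfb, where 5.97% of genes passed (3.37% higher). No member passed for the interaction of stage and sgCbfb, where 1.27% of genes did, 1 of 9 had an unadjusted p under 0.05, and edgeR's test called 0.

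In experiment 2, sgCbfb raised *Myc* and *Mxd1* and lowered *Mycn*, 3 of 9 against 12.5% of 13177 genes (6.91% higher and 5.57% lower). With sgCTCF, *Max* and *Mxd1* were higher and *Myc* was lower, again 3 of 9, against 10.3% of all genes (6.13% higher and 4.2% lower). With sgMed12, 2 of 9, *Max* and *Mycn*, were lower, against 7.22% that passed (4.7% lower). These 3 comparisons share the sgControl libraries. *Mxd3*, *Mxi1* and *Mga* passed in none of the 11 comparisons, which include those between the guides.

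A differentially expressed gene had, besides passing, group means more than 1 apart on the log2 scale, of which the larger exceeded 10 CPM. By that rule *Mxd4* counted with Notch stimulation in sgControl cells (3.39% of genes did), *Mycn* in sgCbfb cells (1.19%), *Mxd1* with sgCbfb in Phase 1 cells (3.52%), and *Max*, *Mxd1* and *Myc* with sgCTCF (2.43%). None of the members reached it with sgCbfb in LPs of experiment 1 (1.69% of genes) or experiment 2 (4.33%), or with sgMed12 (1.03%).

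The libraries of both groups did not overlap for 2 of 9 members with sgCbfb in LPs of experiment 1 (17.5% of all genes), for 3 of 9 in Phase 1 cells (21%), for 2 of 9 with Notch stimulation in sgControl cells (21.8%) and for 3 of 9 in sgCbfb cells (18.9%). In experiment 2 they did not overlap for 3 of 9 with sgCbfb (30.5%), 5 of 9 with sgCTCF (31.1%) and 2 of 9 with sgMed12 (21.3%).

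**Figure D1:**
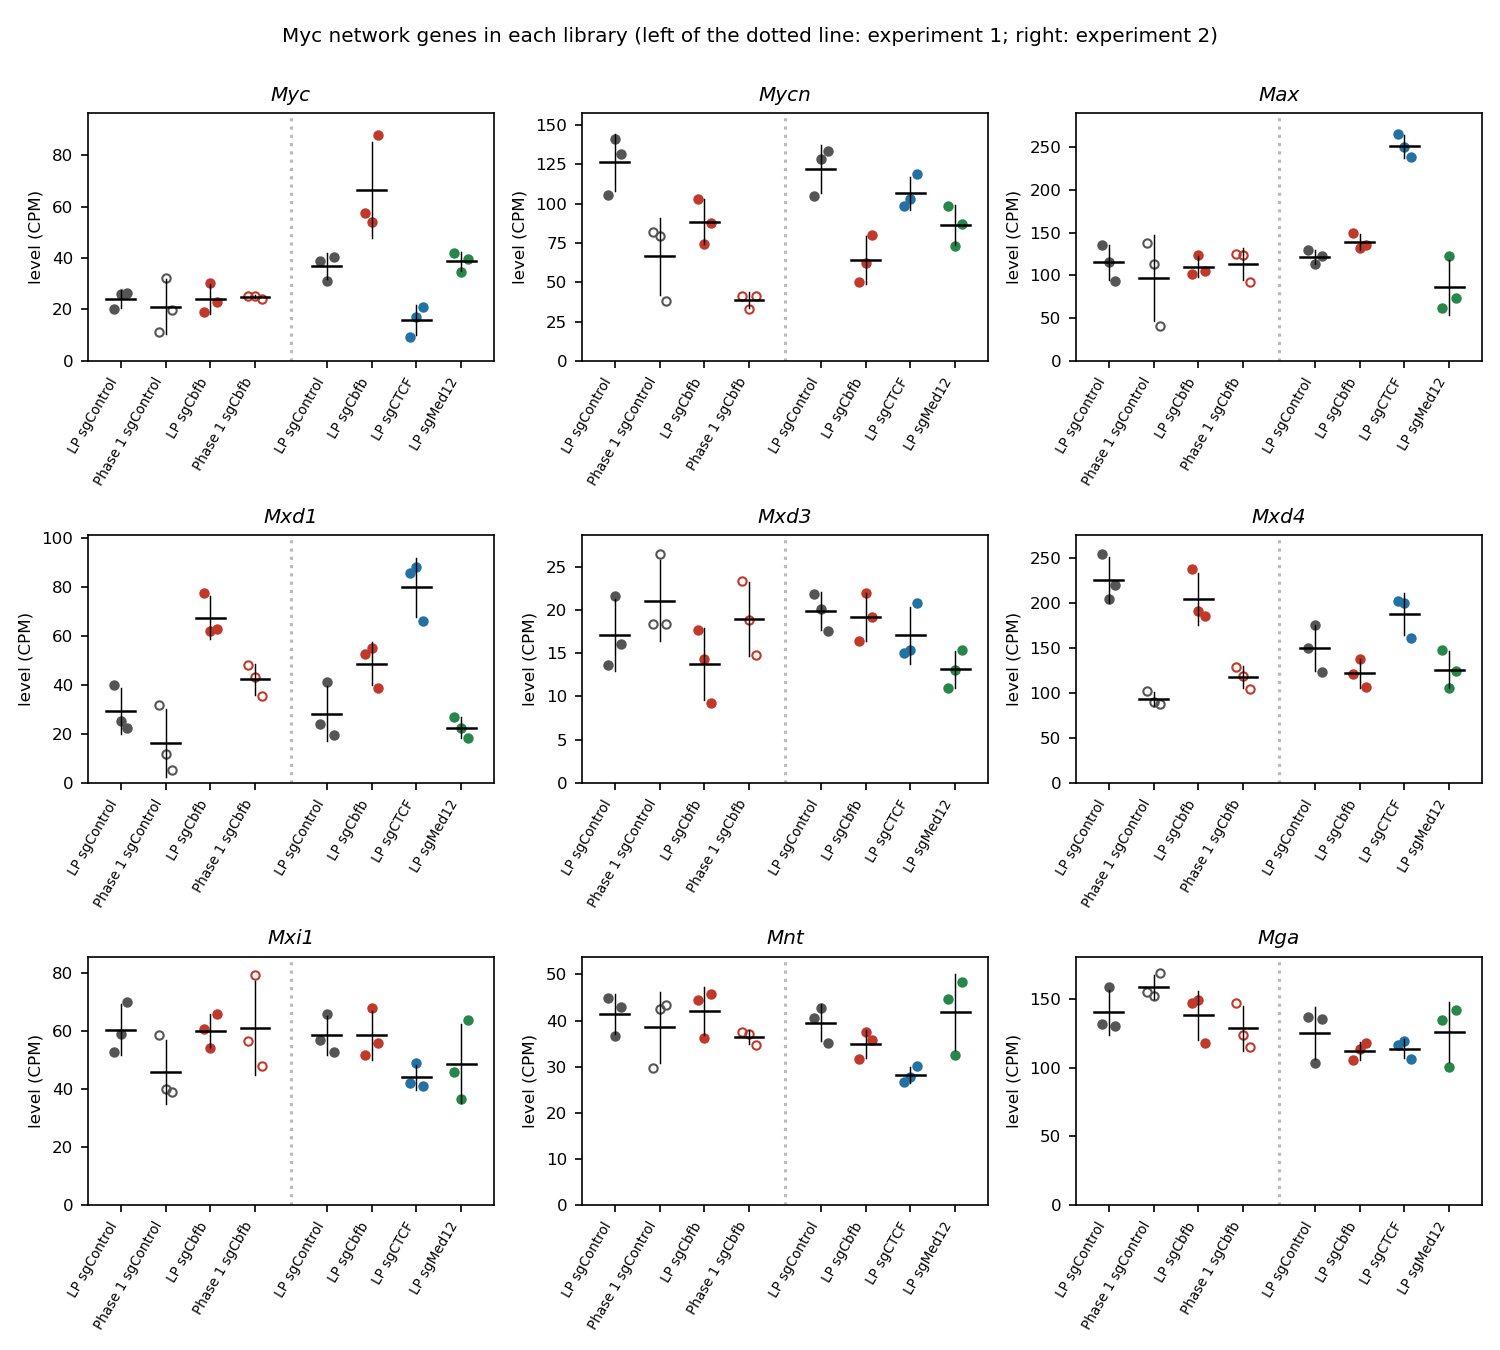
Level (CPM, y axis from 0) of each of the 9 genes in the 24 libraries; points are libraries, horizontal lines group means and vertical lines 1 SD (n = 3), filled points LPs and open points Phase 1 cells. *Max* stands at 239 to 265 CPM in the 3 sgCTCF libraries, above the other 9 libraries of experiment 2, and *Mxd4* is lower in all 6 Phase 1 libraries than in the 6 LP libraries of experiment 1.

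*Myc*, the founding member (ENSMUSG00000022346, chr15:61985391-61990374 on GRCm38), differed between groups in experiment 2. It stood at 39.0, 31.0 and 40.4 CPM in the sgControl libraries and at 57.5, 54.2 and 87.9 CPM in the sgCbfb libraries. In sgCTCF libraries it was 9.39, 17.0 and 20.8 CPM, and in sgMed12 libraries 42.1, 34.6 and 39.5 CPM. Every sgCbfb library was above every sgControl library and every sgCTCF library was below, while the sgMed12 libraries (one of them above all 3 sgControl libraries) overlapped the sgControl libraries. The *Myc* difference from sgControl was 0.81 ± 0.22 on the log2(CPM + 1) scale with sgCbfb (standard error; adjusted p = 0.0125) and -1.23 ± 0.22 with sgCTCF (adjusted p = 0.000387). With sgMed12 it was 0.08, with a 95% interval of -0.37 to 0.52. The rise with sgCbfb rested in part on single libraries: without sgCbfb replicate 3 it was 0.60 (adjusted p = 0.125), and without sgControl replicate 2 it was 0.70 (adjusted p = 0.0741). The *Myc* fall with sgCTCF passed in all 20 alternative analyses.

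The sgCbfb and sgCTCF groups, the ends of the *Myc* range in experiment 2, had means of 66.5 ± 18.6 and 15.7 ± 5.81 CPM (SD, n = 3). Set directly against each other they differed by -2.05 ± 0.22 (sgCTCF minus sgCbfb, log2 scale; adjusted p = 7.878e-08). The mean of sgMed12, 38.7 ± 3.82 CPM, was below that of sgCbfb (-0.74, adjusted p = 0.0198; 0.157 without sgCbfb replicate 3) and above that of sgCTCF (1.31, adjusted p = 0.000149). In the order of group means, sgMed12 and sgControl (36.8 ± 5.08 CPM) were the only neighbours whose libraries overlapped.

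In experiment 1 *Myc* was at 20.1, 26.0 and 26.3 CPM in sgControl LPs and at 19.0, 30.4 and 22.8 CPM in sgCbfb LPs. The Phase 1 libraries had 11.3, 32.3 and 19.8 CPM with sgControl and 25.3, 25.1 and 24.2 CPM with sgCbfb. All 4 groups overlapped. The sgCbfb difference of *Myc* was -0.02 in LPs (95% interval -0.71 to 0.67) and 0.34 in Phase 1 cells (-0.35 to 1.03), beside 0.81 (0.36 to 1.26) in LPs of experiment 2. The Notch difference was -0.29 (-0.98 to 0.40) in sgControl and 0.07 (-0.62 to 0.76) in sgCbfb cells, and the interaction was 0.36 (-0.62 to 1.33). These libraries held 16 to 53 *Myc* reads each, against 35 to 349 in experiment 2, and changes within these intervals cannot be told from the spread between libraries. The 2 experiments were normalized separately and the difference between them was not tested.

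*Mycn* (ENSMUSG00000037169, chr12:12936093-12941914), a paralog known from embryonic and progenitor cells, fell in more comparisons than any other member set against sgControl or LPs. In experiment 1 it was 106, 141 and 132 CPM in sgControl LPs and 81.9, 79.4 and 38.1 CPM in sgControl Phase 1 cells. With sgCbfb it was 103, 74.6 and 87.8 CPM in LPs and 41.5, 32.7 and 41.3 CPM in Phase 1 cells. Within each guide every Phase 1 library was below every LP library. The Notch difference was -0.98 ± 0.24 in sgControl cells (log2 scale; adjusted p = 0.0128) and -1.18 ± 0.24 in sgCbfb cells (adjusted p = 0.0062), and the interaction, -0.19 (-0.89 to 0.51), did not pass. Without Phase 1 sgControl replicate 3, the library that stood apart, the first was -0.63 (adjusted p = 0.0365). It was not called without sgControl LP replicate 2 (adjusted p = 0.0789) or 3 (0.0557), nor was the second without sgCbfb LP replicate 1 (0.0609) or sgCbfb Phase 1 replicate 2 (0.058).

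In experiment 2 *Mycn* was 105, 128 and 133 CPM with sgControl and 50.1, 61.9 and 80.1 CPM with sgCbfb. With sgCTCF it was 98.2, 103 and 119 CPM, and with sgMed12 98.6, 72.9 and 87.1 CPM. The sgCbfb and sgMed12 libraries were all below the sgControl libraries. The sgCbfb difference of -0.94 ± 0.15 (adjusted p = 5.295e-05) passed in all 20 alternatives. The sgMed12 difference of -0.50 ± 0.15 (adjusted p = 0.0426) passed in 7 of 20, and that with sgCTCF was -0.19 (95% interval -0.50 to 0.12). In LPs of experiment 1 the sgCbfb difference had the same sign, at -0.51 ± 0.24, with groups that did not overlap, and missed the threshold (adjusted p = 0.401). In Phase 1 cells it was -0.70 ± 0.24 (adjusted p = 0.0943) and passed without Phase 1 sgControl replicate 3 (-1.06, adjusted p = 0.000136) and with edgeR (adjusted p = 0.0192).

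*Myc* and *Mycn* thus moved in opposite directions with sgCbfb in experiment 2. *Myc* as a share of *Myc* plus *Mycn* CPM went from 19.5 to 27.1% in the sgControl libraries to 46.7 to 53.5% in the sgCbfb libraries. In sgCTCF libraries the share was 8.73 to 14.9%, and in sgMed12 libraries 29.9 to 32.2%. None of the 4 groups overlapped in this share. In experiment 1 it was 15.6 to 16.7% in sgControl LPs, 15.6 to 29.0% in sgCbfb LPs, 12.1 to 34.2% in sgControl Phase 1 cells and 36.9 to 43.5% in sgCbfb Phase 1 cells. The sum of both mRNAs went from 126 to 167 CPM in sgControl LPs to 58.0 to 112 CPM in sgControl Phase 1 cells. These shares and sums are descriptions of 3′ tag counts, and no test was made of them.

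*Max* (ENSMUSG00000059436, chr12:76937269-76962201), the shared partner of the other proteins in the network, was highest with sgCTCF. It was 130, 113 and 122 CPM in the sgControl and 265, 250 and 239 CPM in the sgCTCF libraries of experiment 2. In sgCbfb libraries it was 149.9, 132 and 136 CPM, and in sgMed12 libraries 61.9, 122 and 74.1 CPM. The sgCTCF libraries stood apart from the other 9, and sgCbfb libraries were all slightly above sgControl libraries. With sgCTCF the rise was 1.04 ± 0.16 on the log2 scale (adjusted p = 5.753e-05), and it passed in all 20 alternatives. The sgCTCF libraries, in which *Max* and *Mxd1* rose and *Myc* fell, also had a lower sum of 14 S phase and mitosis genes. It was 4944 to 5370 CPM, against 5820 to 5841 CPM in sgControl, with 4 of 14 genes lower beside 4.2% of all genes. The part of these genes in the results was not tested. With sgCbfb the *Max* difference was 0.19 (95% interval -0.13 to 0.52). With sgMed12 it was -0.55 ± 0.16 (adjusted p = 0.0335), with replicate 2 of sgMed12 inside the sgControl range.

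That sgMed12 call on *Max* rested on single libraries of both groups, not only on those that stood apart. It was lost when any sgControl library was left out (adjusted p = 0.0705 to 0.117) or sgMed12 replicate 3 (0.155), and with edgeR (0.0723). Without sgMed12 replicate 2 the difference was -0.83 (adjusted p = 1.456e-06) and without replicate 1 it was -0.35 (adjusted p = 0.2), and the call held in 12 of 20 alternatives. The sgMed12 libraries also had a lower sum of these 14 S phase and mitosis genes (4210 to 4708 CPM, with 6 of 14 genes lower). That of lymphoid progenitor markers was 877 to 1112 against 1214 to 1402 CPM, with 2 of 7 lower. Of all genes, 4.7% were lower. The part of both lists in the result was not tested. In bulk libraries fewer cells of a type and less RNA per cell cannot be told apart. In experiment 1 *Max* ranged from 41.1 to 138 CPM, with all neighbouring groups overlapping. Its lowest value was Phase 1 sgControl replicate 3, and it passed in none of the 5 comparisons of that experiment.

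*Mxd1* (ENSMUSG00000001156, chr6:86647042-86669161), which encodes the MAX partner that accumulates as blood cells differentiate, was higher with sgCbfb in 2 of 3 settings and with sgCTCF. In LPs of experiment 1 it was 40.1, 25.4 and 22.5 CPM with sgControl and 77.6, 62.0 and 62.8 CPM with sgCbfb. The Phase 1 libraries had 31.8, 11.6 and 5.13 CPM with sgControl and 48.0, 43.4 and 35.4 CPM with sgCbfb. At both stages every sgCbfb library was above every sgControl library. The sgCbfb difference was 1.21 ± 0.40 in LPs (adjusted p = 0.135) and 1.65 ± 0.40 in Phase 1 cells (adjusted p = 0.0121). The first passed with edgeR (adjusted p = 0.0168) and without Phase 1 sgControl replicate 3 (0.00236) or 1 (0.0195), libraries of other groups that enter through the shared spread. The second was 1.08 (adjusted p = 0.0181) without Phase 1 sgControl replicate 3, and was not called without sgCbfb replicate 1 (adjusted p = 0.0725) or 2 (0.0593) or with only the groups compared in the fit (0.169). The interaction of stage and sgCbfb was 0.44 (-0.73 to 1.61). With Notch stimulation *Mxd1* differed by -1.11 ± 0.40 in sgControl cells (adjusted p = 0.107; -0.53 without Phase 1 sgControl replicate 3 and -1.74 without replicate 1, which passed) and by -0.67 ± 0.40 in sgCbfb cells (adjusted p = 0.561).

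The *Mxd1* level in experiment 2 was 24, 41.1 and 19.7 CPM with sgControl and 52.5, 55.0 and 38.5 CPM with sgCbfb, where replicate 2 of sgControl lay above replicate 3 of sgCbfb. It was 85.6, 88.0 and 66.1 CPM with sgCTCF and 26.8, 22.4 and 18.4 CPM with sgMed12. The sgCTCF libraries were all above the other groups. The rise with sgCTCF was 1.52 ± 0.21 (log2 scale; adjusted p = 2.05e-05) and passed in all 20 alternatives. That with sgCbfb was 0.81 ± 0.21 (adjusted p = 0.00883), and was not called without sgControl replicate 1 (adjusted p = 0.0528) or 3 (0.0933) or sgCbfb replicate 2 (0.0636). The 2 differences share their sgControl libraries. Set directly against each other, sgCTCF was higher than sgCbfb by 0.71 ± 0.21 (adjusted p = 0.0149), a call lost without sgCbfb replicate 3 (0.109), sgCTCF replicate 1 (0.0708) or sgCTCF replicate 2 (0.0794).

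Of the myeloid markers, 3 of 6 tested were higher with sgCbfb in LPs and 3 of 6 in Phase 1 cells of experiment 1, and 5 of 7 in experiment 2. Of all genes, 2.85%, 5.97% and 12.5% passed in these comparisons. The summed level of 9 myeloid markers was 58.5 to 89.7 CPM in sgControl LPs and 488 to 582 CPM in sgCbfb LPs of experiment 1, 45.2 to 55.0 and 356 to 386 CPM in Phase 1 cells, and 63.0 to 68.9 and 718 to 813 CPM in experiment 2. *Mrc1* and *F13a1* led it with sgCbfb, with *Elane* and *Cd14* at 0 in every sgCbfb library. In sgCTCF libraries, where *Mxd1* was highest, the sum was 92.5 to 124.8 CPM, and in sgMed12 libraries 80.8 to 97.2 CPM. With sgCTCF 1 of 7 markers was higher and 2 were lower, beside 6.13% and 4.2% of all genes. Their part in the *Mxd1* result was not tested.

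*Mxd4* (ENSMUSG00000037235, chr5:34173883-34187720), a MAX partner found in differentiating and resting cells, was the member that changed most firmly with Notch stimulation. In sgControl cells it was 254, 204 and 219.7 CPM in LPs and 102, 90.3 and 87.3 CPM in Phase 1 cells. With sgCbfb it was 237, 190.4 and 185 CPM in LPs and 129, 119 and 104 CPM in Phase 1 cells. All 6 LP libraries lay above all 6 Phase 1 libraries. The *Mxd4* fall was -1.26 ± 0.15 in sgControl cells (log2 scale; adjusted p = 3.619e-06) and -0.79 ± 0.15 in sgCbfb cells (adjusted p = 0.00263), and both passed in all 20 alternatives. The fall was smaller with sgCbfb by 0.47 ± 0.21, which did not pass the interaction test (adjusted p = 0.417).

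The *Mxd4* effect of sgCbfb within a stage was -0.15 (95% interval -0.45 to 0.16) in LPs and 0.33 (0.02 to 0.63) in Phase 1 cells, where the libraries did not overlap but the adjusted p was 0.244. In experiment 2 *Mxd4* was 150.1, 175 and 123 CPM with sgControl, 121, 137 and 106 CPM with sgCbfb, 202, 199 and 161 CPM with sgCTCF, and 148, 106 and 124 CPM with sgMed12. Against sgControl the difference was 0.33 with sgCTCF (95% interval 0.04 to 0.62), -0.29 with sgCbfb (-0.58 to -0.004) and -0.25 with sgMed12 (-0.53 to 0.04), and none passed (adjusted p = 0.148, 0.201 and 0.298). The sgCTCF libraries were above the sgCbfb libraries by 0.62 ± 0.14 (adjusted p = 0.00159) and above the sgMed12 libraries by 0.58, given as -0.58 ± 0.14 for sgMed12 minus sgCTCF (adjusted p = 0.00476). An antisense gene, *Gm42846*, shares 514 exonic bases with *Mxd4*, among them 353 of the last 500 exonic bases of *Mxd4*. It had 0 reads in every library. The strand setting of the counting was not given, so this 0 does not show that all *Mxd4* reads in the shared bases were counted.

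The remaining MAX partners passed in fewer comparisons. *Mxd3* (chr13:55325168-55329823), which is tied to dividing cells, was 9.28 to 26.4 CPM in experiment 1 and 11.02 to 22.0 CPM in experiment 2, where all 3 sgMed12 libraries were below the sgControl libraries (-0.56 ± 0.21, adjusted p = 0.0992). The last exon of *Mxd3* shares 105 bases with *Prelid1* on the other strand, and the strand setting of the counting was not given in the sources used here, so reads of the 2 genes may be mixed. *Mxi1* (chr19:53310518-53375810), another SIN3-recruiting MAX partner, was 38.9 to 79.2 CPM in experiment 1 and 36.6 to 67.8 CPM in experiment 2. Its sgCTCF libraries lay below the sgControl libraries by 0.40, a difference of -0.40 ± 0.17 (adjusted p = 0.143).

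*Mnt* (chr11:74830920-74845725), the most widely expressed of the repressive partners, was 40.6, 42.8 and 35.1 CPM with sgControl and 26.6, 27.8 and 30.0 CPM with sgCTCF, with no overlap. That difference was -0.47 ± 0.16 (adjusted p = 0.0663), and passed without sgMed12 replicate 2 (0.0231) or with only the groups compared (0.0321). In sgMed12 libraries *Mnt* was 44.6, 32.5 and 48.3 CPM, higher than with sgCTCF by 0.54 ± 0.16 (adjusted p = 0.0214, passing in 15 of 20 alternatives). *Mga* (chr2:119897228-119969581), the scaffold of the Polycomb complex PRC1.6, was the steadiest member, at 115 to 169 CPM in experiment 1 and 101 to 142 CPM in experiment 2. Its intervals against sgControl in experiment 2 were -0.42 to 0.12 with sgCbfb, -0.40 to 0.14 with sgCTCF and -0.27 to 0.27 with sgMed12.

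**Figure D2:**
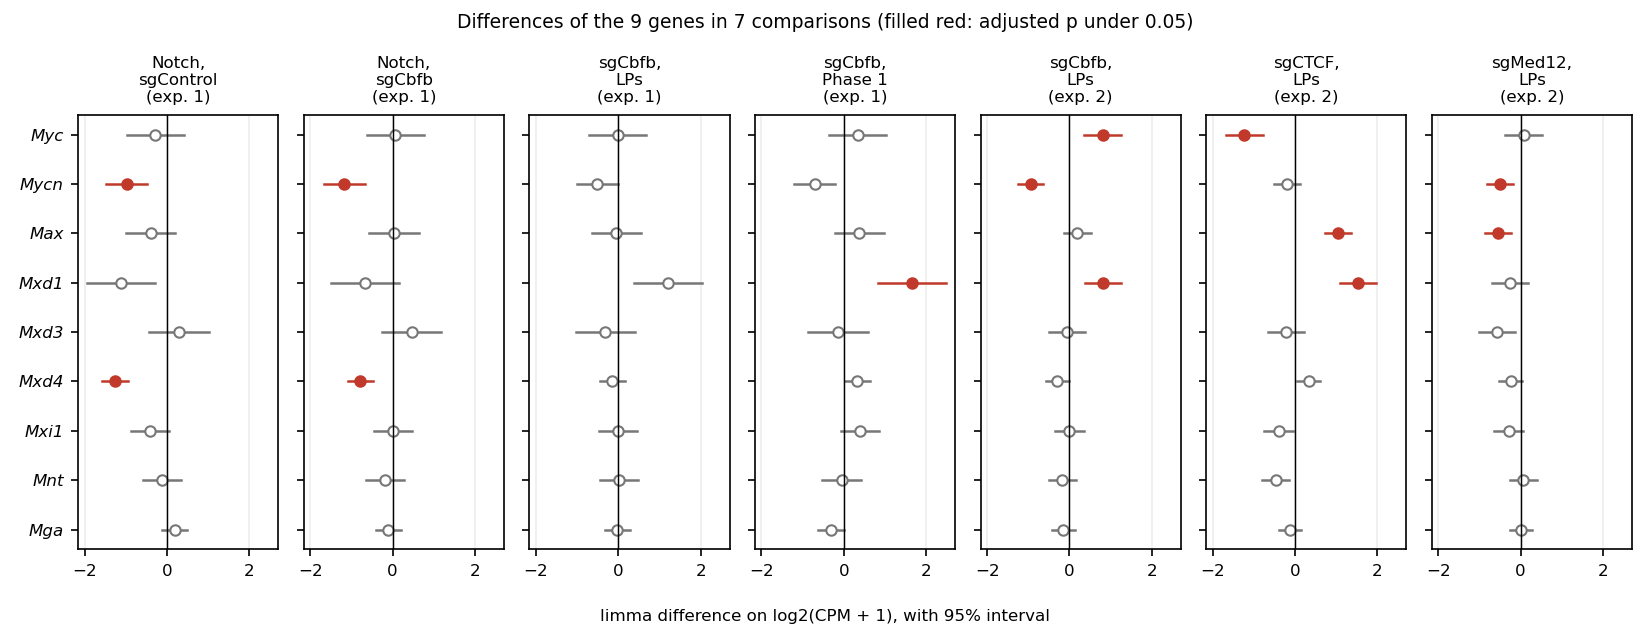
Difference of each member on the log2(CPM + 1) scale with its 95% interval, from limma, in the 2 Notch comparisons (Phase 1 minus LP) and the 5 comparisons of a guide with sgControl; filled red points passed at an adjusted p under 0.05. *Mycn* and *Mxd4* are lower in both Notch panels, and the sgCTCF panel has *Max* and *Mxd1* on the right (1.04 and 1.52) and *Myc* on the left (-1.23).

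Directly compared with each other, the guides of experiment 2 separated the members further. Between sgCTCF and sgCbfb 5 of 9 members passed, where 22.3% of all genes did (11.5% higher and 10.9% lower), with *Max*, *Mycn*, *Mxd4* and *Mxd1* higher and *Myc* lower with sgCTCF. *Max* differed by 0.85 ± 0.16 (adjusted p = 0.000207) and *Mycn* by 0.75 ± 0.15 (adjusted p = 0.000527). Between sgMed12 and sgCbfb 4 of 9 passed, against 16.8% (7.03% higher and 9.77% lower), with *Mxd1* (-1.07 ± 0.21, adjusted p = 0.000571), *Max* (-0.75 ± 0.16, adjusted p = 0.0012) and *Myc* lower and *Mycn* higher with sgMed12. The last, 0.44 ± 0.15 (adjusted p = 0.045), passed in 8 of 20 alternatives. Between sgMed12 and sgCTCF 5 of 9 passed, against 20% of all genes (8.09% higher and 11.9% lower). *Max* (-1.59 ± 0.16, adjusted p = 1.001e-07) and *Mxd1* (-1.78 ± 0.21, adjusted p = 1.503e-06) were lower with sgMed12, as was *Mxd4*, while *Myc* and *Mnt* were higher. *Max* and *Mxd1* were thus higher with sgCTCF than in each of the other 3 groups of the experiment, by tests that share the sgCTCF libraries. By the rule for differentially expressed genes, *Myc* counted between sgCTCF and sgCbfb (6.87% of genes did), *Mxd1* between sgMed12 and sgCbfb (4.48%), and *Max*, *Mxd1* and *Myc* between sgMed12 and sgCTCF (4.01%). The libraries did not overlap for 7 of 9, 4 of 9 and 5 of 9 members, beside 39.6%, 28.1% and 32.4% of all genes.

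The balance of *Myc* to its competitors was described as the log2 ratio of *Myc* CPM to the summed CPM of *Mxd1*, *Mxd3*, *Mxd4*, *Mxi1* and *Mnt*, and is read only between groups. In experiment 2 it was -3.48 to -2.62 in sgControl libraries and -2.56 to -1.54 in sgCbfb libraries. In sgCTCF libraries it was -5.30 to -3.94 and in sgMed12 libraries -2.77 to -2.61. All 3 sgCTCF libraries were lowest and all 3 sgCbfb libraries were highest. The mean was -3.002 ± 0.44 with sgControl, -2.12 ± 0.52 with sgCbfb, -4.57 ± 0.69 with sgCTCF and -2.70 ± 0.09 with sgMed12 (SD, n = 3). In experiment 1 it was -3.96 ± 0.33 in sgControl LPs, -4.03 ± 0.48 in sgCbfb LPs, -3.47 ± 0.87 in sgControl Phase 1 cells and -3.47 ± 0.15 in sgCbfb Phase 1 cells. The summed competitor level, led by *Mxd4*, was 346 to 405 CPM in sgControl LPs and 193 to 241 CPM in sgControl Phase 1 cells, with no overlap. The ratio leaves out *Mycn*, so it does not give the balance of both activators. In experiment 2 the *Myc* plus *Mycn* sum was 144 to 174 CPM with sgControl and 108 to 168 CPM with sgCbfb. It was 108 to 139 CPM with sgCTCF and 108 to 141 CPM with sgMed12. Summed competitor levels were 248 to 345, 255 to 320, 319 to 380 and 210 to 276 CPM in the same order.

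**Figure D3:**
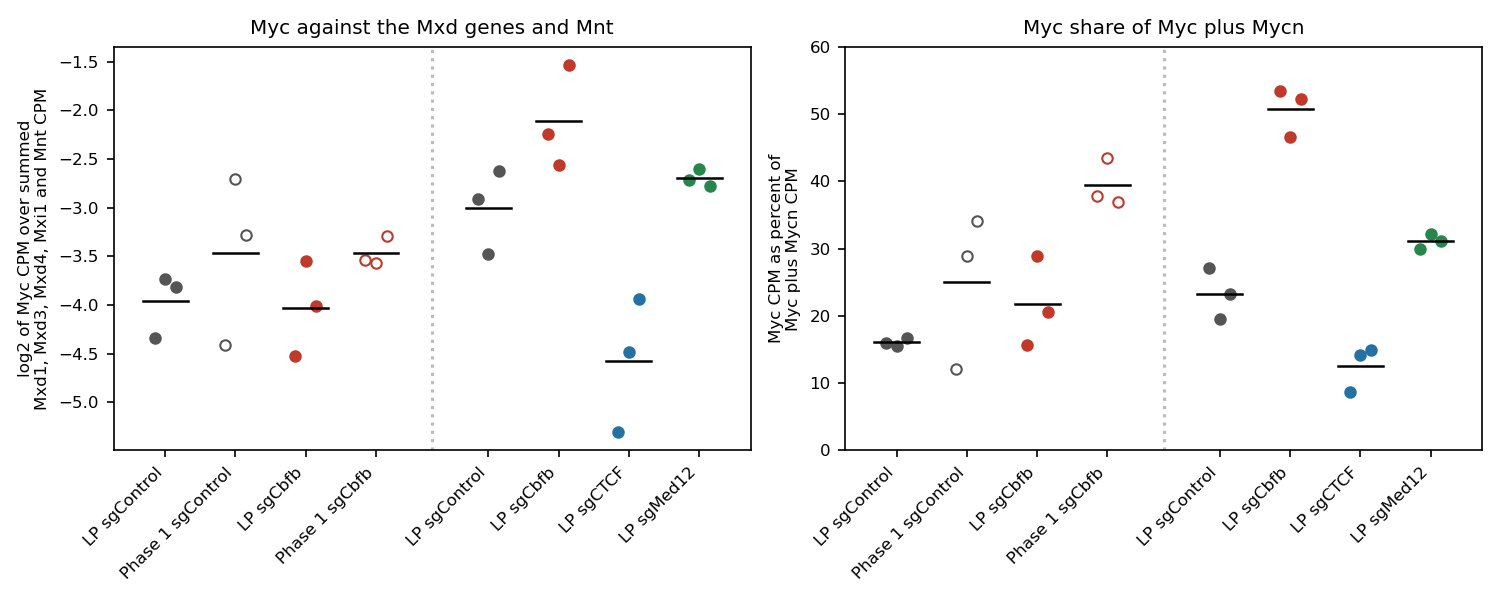
Left, the log2 ratio of *Myc* CPM to the summed CPM of *Mxd1*, *Mxd3*, *Mxd4*, *Mxi1* and *Mnt* in each library; right, *Myc* as a percentage of *Myc* plus *Mycn* CPM. Points are libraries (filled LPs, open Phase 1 cells), lines are group means, and experiment 1 is left of each dotted line; in experiment 2 the sgCTCF libraries lie lowest and the sgCbfb libraries highest in both plots.

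Genes with patterns like those of the members were sought by Pearson's r over the 8 group means, on the log2 scale and centred within each experiment, among 8622 genes. With 8 points and that many genes, high values are given as a description. The genes most like *Myc* were *Vps36* (0.97), *Rnf19b* (0.96), *Cgas* (0.96), *Vps13a* (0.95) and *Ogfrl1* (0.95). The likeness to *Ogfrl1* was carried by experiment 2, since over the 4 groups of experiment 1 alone r was -0.97, and that to *Vps36* was 0.54 there. The most like genes of the others were *Usp19* for *Mycn* (0.97), *Mob4* for *Max* (0.98), *Kdm7a* for *Mxd1* (0.98), *Stx18* for *Mxd3* (0.98), *Asxl1* for *Mxd4* (0.98), *Pabpc1* for *Mxi1* (0.98), *Xpo7* for *Mnt* (0.995) and *Rbm19* for *Mga* (0.97). When r was taken from the libraries of each replicate number, its SD ranged from 0.03 (*Mxd1* and *Kdm7a*) to 0.43 (*Mga* and *Rbm19*). It was 0.36 for *Mnt* and *Xpo7*. No member was the gene most like another member.

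Known MYC targets were read from 3 lists. Of 20 nucleolar and ribosome synthesis genes, 5 were higher and none lower with Notch stimulation in sgControl cells, where 6.48% of all genes passed. *Ddx21*, an RNA helicase of the nucleolus, went from 377 ± 86.3 to 586 ± 50.1 CPM (log2 difference 0.66, adjusted p = 0.00621) and *Nop56*, a core snoRNP protein, from 217.6 ± 37.1 to 340.2 ± 23.2 CPM (0.65, adjusted p = 0.00326). The list's median difference was 0.41, beside -0.07 for all genes. In sgCbfb cells it was 0.31, beside -0.01, and no gene of it passed with limma (8 of 20 had an unadjusted p under 0.05, and edgeR called 0), but 5 of 20 were higher without Phase 1 sgControl replicate 3. In both comparisons *Mycn* was lower and *Myc* did not pass.

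With sgCTCF, where *Myc* fell, 4 of the 20 nucleolar genes were lower and none higher, beside 4.2% of all genes lower, with a list median of -0.25 beside -0.02. *Dkc1*, the pseudouridine synthase of snoRNPs, fell from 667 ± 109 to 505 ± 27.9 CPM (-0.39, adjusted p = 0.0451) and *Nop56* from 323 ± 49.9 to 238.5 ± 34.2 CPM (-0.43, adjusted p = 0.0495), calls that passed in 10 and 6 of 20 alternatives. With sgCbfb in experiment 2, where *Myc* rose, 1 of 20 passed beside 12.5% of all genes, *Ddx21*, and it was lower (517 ± 82.9 to 393 ± 44.5 CPM, adjusted p = 0.0205). With sgMed12 1 of 20 passed beside 7.22% of all genes, *Gnl3*, which encodes nucleostemin, and it was higher (345 ± 56.4 to 468 ± 55.9 CPM, adjusted p = 0.0299). That call passed in 14 of 20 alternatives. Against sgCTCF, sgMed12 had 6 of 20 higher (8.09% of all genes), among them *Gnl3* (0.83, adjusted p = 3.51e-05) and *Nop56* (0.82, adjusted p = 0.000202). Against sgCbfb it had 4 higher (7.03%), with *Gnl3* at 0.62 (adjusted p = 0.000594) and *Nolc1*, a snoRNP assembly factor, at 0.60 (adjusted p = 0.000996). Between sgCTCF and sgCbfb 3 of 20 were lower with sgCTCF (10.9% of all genes), including *Npm1* (1885 ± 192 to 1461 ± 155 CPM, adjusted p = 0.0195) and *Polr1b* (adjusted p = 0.0431). The *Npm1* and *Polr1b* calls passed in 16 and 11 of 20 alternatives.

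Of 19 tested metabolic and growth targets, *Ccnd2* and *Tfrc* passed most often. *Ccnd2*, the D-type cyclin of early lymphocytes, fell with sgCbfb from 537 ± 53.5 to 281 ± 41.9 CPM in LPs of experiment 1 (adjusted p = 3.774e-05), from 996 ± 76.9 to 564 ± 38.3 CPM in Phase 1 cells (adjusted p = 0.000111) and from 720.4 ± 122 to 517 ± 132 CPM in experiment 2 (adjusted p = 0.0149), the last with overlapping groups and passing in 14 of 20 alternatives. It rose with Notch stimulation by 0.89 in sgControl and 1.01 in sgCbfb cells (adjusted p = 2.981e-05 and 1.958e-05). *Tfrc*, the transferrin receptor, fell with sgCbfb in LPs of both experiments (525 ± 63.5 to 332 ± 20.4 CPM, adjusted p = 0.0054, and 472 ± 31.9 to 246 ± 7.46 CPM, adjusted p = 1.162e-07). With Notch stimulation in sgControl cells it fell to 281 ± 41.2 CPM (-0.90, adjusted p = 9.467e-05).

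In the same list of 19, the counts were 2 lower with sgCbfb in LPs of experiment 1, 1 lower in Phase 1 cells, 1 higher and 1 lower with Notch stimulation in sgControl cells and 1 higher in sgCbfb cells. In experiment 2, 4 were lower with sgCbfb (5.57% of all genes were), 3 with sgCTCF (4.2%) and 3 with sgMed12 (4.7%). In experiment 1 the shares of all genes that passed were 2.85%, 5.97%, 6.48% and 2.24% in the same order. With sgCTCF *Ldha*, lactate dehydrogenase A, fell from 778 ± 41.0 to 415 ± 40.6 CPM (-0.91, adjusted p = 4.809e-06) and *Slc7a5*, a carrier of large amino acids, from 136 ± 10.7 to 87.1 ± 10.6 CPM (-0.64, adjusted p = 0.000976). With sgMed12 *Ldha* was 559 ± 97.99 CPM (-0.49, adjusted p = 0.0118), and *Rcc1*, the exchange factor of RAN, was 135 ± 55.3 against 209 ± 61.3 CPM (adjusted p = 0.0472), a call that passed in only 2 of 20 alternatives. *Slc7a5* was also lower with sgCTCF than with sgCbfb (-0.79, adjusted p = 2.46e-05) and sgMed12.

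The 6 genes that MYC is known to lower did not form one pattern. With sgCbfb 3 of 6 were higher in LPs of each experiment and 2 of 6 in Phase 1 cells (1 of 6 without Phase 1 sgControl replicate 3), beside 2.85%, 12.5% and 5.97% of all genes that passed in these comparisons. *Ndrg1*, a gene of differentiation and hypoxia, rose from 15.5 ± 2.48 to 40.1 ± 5.00 CPM in LPs of experiment 1 (adjusted p = 0.00808) and from 18.8 ± 5.56 to 52.7 ± 8.15 CPM in experiment 2 (adjusted p = 1.88e-05), where *Myc* also rose. It fell with sgMed12 to 8.17 ± 1.61 CPM (-1.08, adjusted p = 0.00534). *Cdkn2b*, the CDK inhibitor p15, was near the floor: 0.43 and 4.71 CPM with sgControl and sgCbfb in LPs of experiment 1, listed at 0 and 3.27 CPM in Phase 1 cells, and 0.39 and 2.95 CPM in experiment 2, and its calls held in 5, 10 and 15 of 19 alternatives. With sgCTCF 2 of 6 were higher (6.13% of all genes), *Gadd45a*, a growth arrest gene (4.004 ± 1.18 to 12.4 ± 1.62 CPM, adjusted p = 0.00359), and *Cdkn1a*, the CDK inhibitor p21 (397 ± 40.8 to 538 ± 107 CPM, adjusted p = 0.0274).

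**Figure D4:**
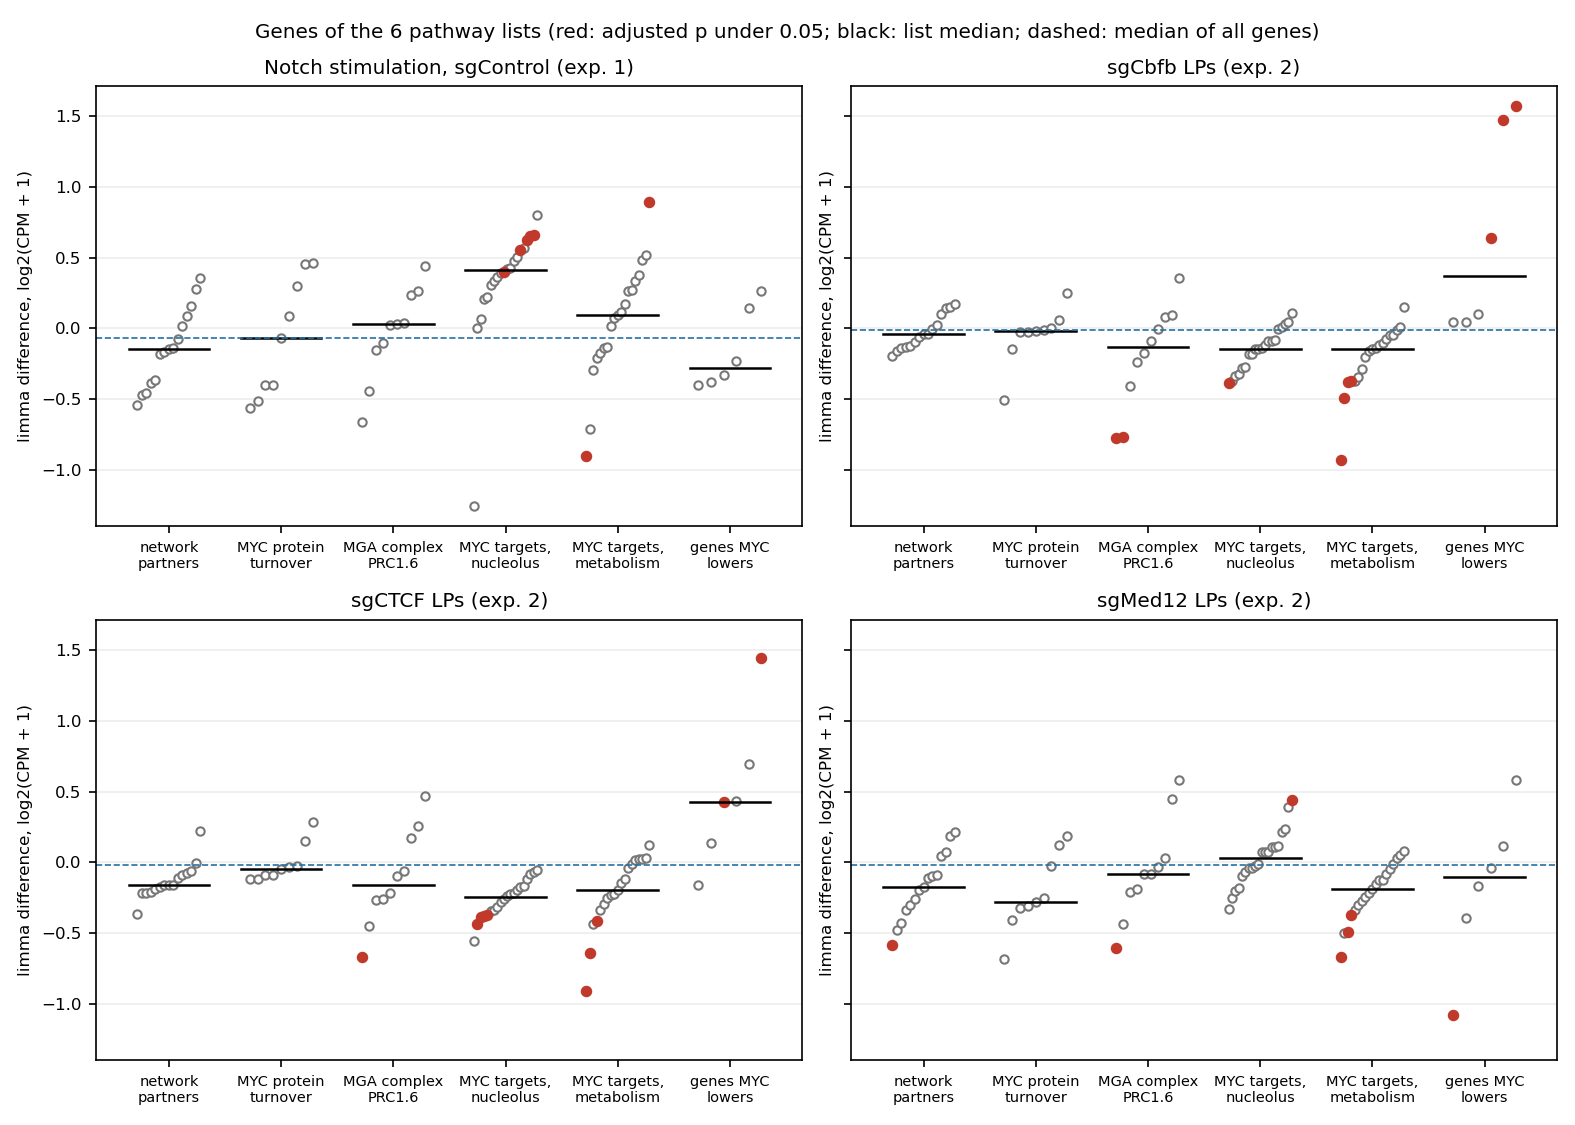
Difference on the log2(CPM + 1) scale for the genes of 6 lists (x axis) in 4 comparisons; each point is a gene, red points passed at an adjusted p under 0.05, black lines are list medians and the dashed line is the median of all genes. The nucleolar list lies above the line with Notch stimulation (median 0.41) and below it with sgCTCF (-0.25).

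The mRNAs of other network proteins passed in few comparisons. Of 15 tested partners of MYC, MAX and MXD proteins, none passed in the 4 comparisons of experiment 1, the interaction, or with sgCbfb or sgCTCF in experiment 2 (limma; 0 to 3 had an unadjusted p under 0.05, and edgeR called 0). With sgMed12 1 of 15 was lower, where 7.22% of all genes passed, and 6 without sgMed12 replicate 2, where 21.5% passed. Against sgCbfb 1 was lower with sgMed12 (16.8% of all genes passed), and 7 without that library (26.1%). Without sgMed12 replicate 1 none of the 15 passed in either comparison. *Wdr5*, which holds MYC on chromatin, fell with sgMed12 from 89.5 ± 9.90 to 60.8 ± 18.0 CPM (-0.58, adjusted p = 0.0272; groups overlapping). The SIN3 corepressor gene *Sin3b* was lower with sgMed12 than with sgCTCF (114 ± 39.1 against 158 ± 17.5 CPM, adjusted p = 0.0182). The *Wdr5* and *Sin3b* calls passed in 14 and 15 of 20 alternatives. Of 9 genes for MYC protein turnover none passed with limma or edgeR against sgControl or LPs (0 to 4 had an unadjusted p under 0.05). In experiment 2 *Fbxw7*, which encodes the ubiquitin ligase subunit that recognizes MYC, was lower with sgCTCF than with sgCbfb (64.5 ± 2.98 against 83.4 ± 2.30 CPM, adjusted p = 0.022). *Trim32* and *Skp2*, both ubiquitin ligase genes, were lower with sgMed12 than with sgCTCF (adjusted p = 0.0355 and 0.0454), calls that passed in 12 and 5 of 20 alternatives.

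In the 10 partners of MGA in PRC1.6, 2 were lower with sgCbfb in experiment 2 (5.57% of all genes) while *Mga* itself was 105, 114 and 118 CPM there, beside 137, 103 and 135 CPM with sgControl. *L3mbtl2*, a chromatin reader of the complex, fell from 68.8 ± 8.20 to 40.5 ± 9.74 CPM (-0.77, adjusted p = 0.00166) and *Yaf2*, which joins RING1 proteins, from 35.1 ± 4.52 to 20.3 ± 4.49 CPM (-0.77, adjusted p = 0.00482), in all 20 alternatives. With sgCTCF *Tfdp2*, the E2F partner, fell from 50.8 ± 6.59 to 31.4 ± 1.21 CPM (-0.67, adjusted p = 0.00213), and with sgMed12 *Cbx3*, which encodes HP1 gamma, from 302 ± 61.1 to 198 ± 32.2 CPM (-0.60, adjusted p = 0.0108). The *Tfdp2* call passed in all 20 alternatives and the *Cbx3* call in 15. *Yaf2* (0.74, adjusted p = 0.006) and *Pcgf6*, the subunit that defines this complex (0.68, adjusted p = 0.00291), were higher with sgMed12 than with sgCbfb. None of the 10 passed with limma or edgeR in experiment 1, where 0 to 3 had an unadjusted p under 0.05.

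The counts for sgMed12 changed most with single libraries. Without sgMed12 replicate 2, 2830 of 13177 genes passed in place of 952, with 6 of 15 network partners lower, 6 of 9 turnover genes (5 lower), 9 of 19 metabolic targets lower and 5 of 20 nucleolar targets (2 higher and 3 lower). Without replicate 1, 254 genes passed, with 0, 0, 1 and 0 genes of these lists. Of the members, 1 of 9 passed in each case, *Max* without replicate 2 and *Mycn* without replicate 1.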

How the data were processed

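RNA of sorted cells was sequenced with the QuantSeq 3′ mRNA FWD kit (24 libraries). Per the submitters' processing notes and methods, the authors used fastp for trimming and STAR for alignment (mm10), then divided each library by its total reads. The strand setting of the counting is not given in the sources used here. The values the authors deposited, though named TPM, are CPM: they were whole multiples of 1 read's value whatever the gene's length (100% of values in experiment 1 and at least 99.98% in experiment 2, within 0.02 reads), so whole reads were recovered. With 3 reads as the floor, a 0 leaves room for 1.72 to 2.20 CPM (experiment 1) or 0.693 to 0.894 CPM (experiment 2), counting error only. A last line without a gene identifier was not used.

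Groups and replicates came from the sample labels. The members and all gene lists were chosen with earlier results of these data known. Genes that reached 1 CPM in 3 or more libraries were tested with limma 3.58.1 (R 4.3.3; trend) on log2(CPM + 1), which understates changes of low genes; 4 groups per experiment entered 1 fit, with Benjamini-Hochberg adjustment. Same-numbered libraries met the pairing rule (every correlation of deviations over 0.1) only between sgCbfb and sgCTCF in experiment 2. Differences are first-named minus second-named group. Exact permutation of 3 against 3 libraries cannot go below p = 0.1. The paper describes the 3 replicates of a sample type as biologically independent. Whether libraries of a group came from separate cultures is not in the labels, so p-values measure the spread between these libraries. All 9 members were named; from each other list and comparison, up to 2 passing genes with the largest difference, 5 genes most like *Myc* and 1 for each other member. Positions and exon overlaps came from GENCODE M21 (GRCm38). Alternatives were pseudocounts of 0.1 and 5, no filter, a filter at a group mean over 10 CPM, scaling by median of ratios, a fit of the compared groups alone, the replicate number as a block, edgeR 4.0.16 (quasi-likelihood, TMM) on recovered reads, and each library left out. The fits were tested on simulated data. Python 3.11.15 with pandas 2.3.3, numpy 2.4.6 and matplotlib 3.10.9 made the summaries and plots.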

Additional observations from a re-analysis of the deposited data

How the results depend on the processing

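Of 99 tests of members, 27 passed, 16 of these in every alternative, and 0 changed direction where they had passed. The number of members passing moved with the analysis as follows. With sgCbfb in LPs of experiment 1 it was 1 in place of 0 with the replicate block and with edgeR (412 and 429 of 13239 genes passed, in place of 377). With sgCbfb in Phase 1 cells it was 0 in place of 1 with only the groups compared and 2 with edgeR (811 genes in place of 790). With Notch stimulation in sgControl cells it was 1 in place of 2 with only the groups compared, where *Mycn* missed (adjusted p = 0.15). With sgCTCF it was 5 in place of 3 with only the groups compared, which added *Mnt* and *Mxi1*. In that fit 1942 of 13177 genes passed, in place of 1361. With sgMed12 the number of members was 1 in place of 2 with a pseudocount of 0.1 or median-of-ratios scaling. It was 0 with no filter, with only the groups compared or with edgeR. Of all genes, 791 passed with that pseudocount, 844 with that scaling and 787 with edgeR, in place of 952. Between sgMed12 and sgCbfb the number of members was 2 in place of 4 with no filter (1847 of 21692 genes, in place of 2215 of 13177). Leaving out 1 library at a time gave 0 to 1 and 0 to 2 members with sgCbfb in LPs and Phase 1 cells of experiment 1, 1 to 3 and 1 to 2 with Notch stimulation in sgControl and sgCbfb cells, 0 to 0 for the interaction, 2 to 3 with sgCbfb, 3 to 4 with sgCTCF and 0 to 2 with sgMed12 in experiment 2, and 4 to 6, 2 to 4 and 4 to 5 for sgCTCF against sgCbfb, sgMed12 against sgCbfb and sgMed12 against sgCTCF. Over the groups of experiment 1 alone, the likeness of *Myc* to *Ogfrl1* was -0.97 in place of 0.95 and to *Vps36* 0.54 in place of 0.97. Over all genes, 952 passed with sgMed12, against 325 with no filter and 24 with only the groups compared. With only the groups compared the counts were 480 in place of 790 with sgCbfb in Phase 1 cells, 401 in place of 858 with Notch stimulation in sgControl cells, and 1356 in place of 2215 between sgMed12 and sgCbfb. Without Phase 1 sgControl replicate 3, 636 genes passed in place of 377 with sgCbfb in LPs and 571 in place of 297 with Notch stimulation in sgCbfb cells. The sgMed12 calls split into 333 higher and 619 lower, 387 and 457 with median-of-ratios scaling, and 403 and 384 with edgeR. Libraries with the same replicate number had correlations of their deviations from the group means of -0.04 to 0.14 in experiment 1 and -0.13 to 0.22 in experiment 2. All 3 pairs were over 0.1 only between sgCbfb and sgCTCF (0.1003 to 0.1334), where the replicate block kept the 5 member calls and the named pathway calls and gave 2982 genes in place of 2941. For sgControl and sgCTCF the correlations were 0.063, 0.086 and 0.105, and for sgControl and sgCbfb of experiment 2 0.047, 0.216 and 0.179. For sgCbfb and sgMed12 they were -0.107, -0.13 and 0.035. Whether libraries with the same number share a batch is not in the labels and was not tested. With the replicate block *Mxd1* passed with sgCbfb in LPs of experiment 1 (adjusted p = 0.0396) and with Notch stimulation in sgControl cells (0.0363). The cause of these changes was not tested. Of the 60 calls on named pathway genes, 32 passed in every alternative and 0 reversed.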
